A study of Homo sapiens with 6 samples.

Results

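A readthrough gene is an annotated transcription unit in which RNA polymerase passes the end of one gene and continues into the next gene on the same strand, so that 1 RNA joins exons of both. The genes described here were found by name: a name with a single hyphen whose parts before and after the hyphen are each a gene of their own in the deposited tables, with antisense names left out. By this rule 60 of the 17721 genes in either table were readthrough genes, and they had 120 parent genes. The part of the name before the hyphen is called the first parent, and the part after it the second parent.

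The cells were U2OS, a line established from a human osteosarcoma. Its 6 labelled RNA samples were 1 input of control cells (shNC, genotype WT), 1 input of cells with DNMT1 knockdown (shDNMT1), and 2 samples of each of these cells holding RNA co-immunoprecipitated by an NSun2 mutant. DNMT1 maintains cytosine methylation of DNA and NSun2 methylates cytosine in RNA. A plasmid of the NSun2 mutant was transfected into the control cells, called U6 in the protocol, and into the shDNMT1 cells, so no labelled immunoprecipitate came from cells without the mutant. The 2 tables analysed gave 1 FPKM per gene (fragments per kilobase of transcript and for sequencing output, a level scaled for length) and named no sample. Here 1 is named first and the other second, neither stands for a condition, and no difference between them has a replicate, an SD or a test.

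There were 15167 genes in the first table, 16824 in the second and 14270 in both, and the absolute depth of either is unknown. DNMT1 was listed at 23.3 and 9.36 FPKM. Of the mesenchymal and osteoblast markers, VIM was listed at 262 and 407 FPKM and ALPL at 78.4 and 38.0 FPKM, and COL1A1 at 3.04 and 0.45 FPKM. RUNX2 and SPARC were in the second table only, at 0.81 and 0.033 FPKM, and SP7 and COL1A2 were in neither. The epithelial keratin gene KRT8 was listed at 1597 and 1410 FPKM, CDH1 at 8.42 and 0.39 FPKM and EPCAM at 2.20 and 0.55 FPKM. What part, if any, these markers have in the readthrough values was not tested.

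As background, transcription normally ends after a polyadenylation signal is read, the RNA is cleaved and its downstream remnant is degraded until the polymerase is released. When cleavage is skipped, the polymerase can reach a neighbour, and splicing then often joins an inner exon of the first gene to the second exon of the neighbour. Some of these RNAs encode fusion proteins, and others carry early stop codons and are targets of nonsense-mediated decay.

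All 60 readthrough genes and both parents of each were found in RefSeq (GRCh38.p14), 6 of them under a newer symbol. RefSeq classed 37 as protein coding, 22 as long noncoding RNA and 1, PKD1P6-NPIPP1, as a transcribed pseudogene. A strand was given for 57, and in 57 of these the first-named parent started upstream of the other. In POC1B-GALNT4 the second parent lies inside the first. The start of the readthrough gene was the very base at which the first parent starts in 23 of 60 and lay within 100 bases of it in 39. Its end was the last base of the second parent in 37 and within 100 bases of it in 50. The space between the parents had a median of 4858 bases. It was over 1000 and up to 10000 bases for 29 genes and over 10000 bases for 19, and the parents overlapped in 3. ARMCX5-GPRASP2, with 108288 bases, spanned the widest space. In RefSeq it ends 190331 bases beyond GPRASP2, while its deposited locus ends at base 102717733, the end of GPRASP2. Of the 60, 51 started within 1000 bases of the first parent's start and 54 ended within 1000 bases of the second parent's end.

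**Figure D1:**
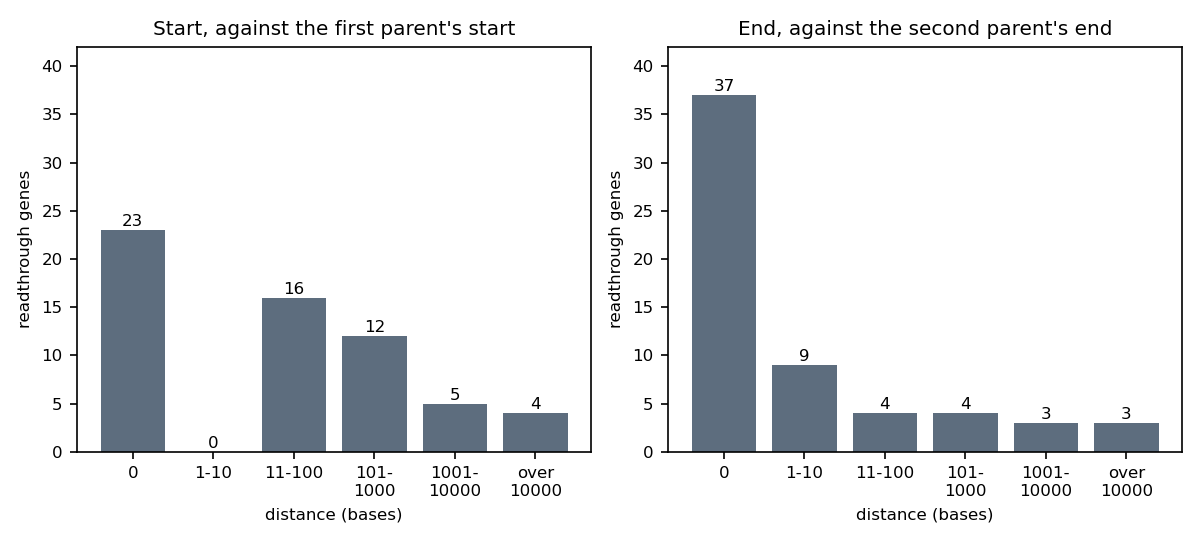
Distance in bases between the RefSeq start of each of the 60 readthrough genes and the start of its first parent (left), and between its end and the end of its second parent (right); bars count genes. The tallest bars are at distance 0, with 23 genes for the start and 37 for the end.

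The start regions show which promoter each of these RNAs is annotated to use. The windows below were chosen for the 4 genes at least 2-fold apart between the tables after 1 FPKM was added to each value. By plain ratio some other readthrough genes differed more than RPL17-C18orf32 and ABHD14A-ACY1. Windows are also given for PMF1-BGLAP and its second parent, which encodes the bone protein osteocalcin. Each is the RefSeq (GRCh38.p14) sequence from 100 bases before the start, in lower case, to the first 30 transcribed bases, in capitals. For COMMD3-BMI1, CORO7-PAM16, RPL17-C18orf32 and ABHD14A-ACY1 the window is identical to that of the first parent, and the second parent starts elsewhere, in different sequence.
COMMD3-BMI1 and COMMD3 (chr10:22316288-22316417, plus strand): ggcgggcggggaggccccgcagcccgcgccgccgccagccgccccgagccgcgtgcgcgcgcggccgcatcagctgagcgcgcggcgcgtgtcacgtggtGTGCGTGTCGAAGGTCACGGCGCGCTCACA
BMI1 (chr10:22320999-22321128, plus strand): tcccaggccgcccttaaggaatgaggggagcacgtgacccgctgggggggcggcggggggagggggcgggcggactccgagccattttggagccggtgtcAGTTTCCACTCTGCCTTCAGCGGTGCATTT
CORO7-PAM16 and CORO7 (chr16:4416567-4416696, minus strand): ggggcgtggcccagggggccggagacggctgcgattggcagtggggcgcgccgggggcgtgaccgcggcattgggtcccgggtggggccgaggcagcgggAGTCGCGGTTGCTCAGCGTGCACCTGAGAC
PAM16 (chr16:4351292-4351421, minus strand): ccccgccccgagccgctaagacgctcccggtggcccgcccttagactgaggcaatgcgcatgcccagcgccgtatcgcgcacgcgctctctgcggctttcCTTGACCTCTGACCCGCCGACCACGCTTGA
RPL17-C18orf32 and RPL17 (chr18:49492436-49492565, minus strand): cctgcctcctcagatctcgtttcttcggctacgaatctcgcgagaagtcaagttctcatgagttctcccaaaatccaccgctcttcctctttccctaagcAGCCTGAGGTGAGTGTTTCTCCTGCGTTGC
C18orf32 (chr18:49487205-49487334, minus strand): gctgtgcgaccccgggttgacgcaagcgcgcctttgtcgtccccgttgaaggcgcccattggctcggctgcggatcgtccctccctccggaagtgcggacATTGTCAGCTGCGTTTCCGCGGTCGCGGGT
ABHD14A-ACY1 and ABHD14A (chr3:51974964-51975093, plus strand): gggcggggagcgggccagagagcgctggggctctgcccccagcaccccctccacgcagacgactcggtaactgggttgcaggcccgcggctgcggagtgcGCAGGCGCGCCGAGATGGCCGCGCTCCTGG
ACY1 (chr3:51983435-51983564, plus strand): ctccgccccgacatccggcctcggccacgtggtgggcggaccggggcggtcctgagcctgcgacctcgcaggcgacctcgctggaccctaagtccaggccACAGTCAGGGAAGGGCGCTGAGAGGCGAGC
PMF1-BGLAP (chr1:156212888-156213017, plus strand): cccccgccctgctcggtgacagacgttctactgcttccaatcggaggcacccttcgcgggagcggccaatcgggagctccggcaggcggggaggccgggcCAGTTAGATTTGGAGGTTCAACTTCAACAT
BGLAP (chr1:156242084-156242213, plus strand): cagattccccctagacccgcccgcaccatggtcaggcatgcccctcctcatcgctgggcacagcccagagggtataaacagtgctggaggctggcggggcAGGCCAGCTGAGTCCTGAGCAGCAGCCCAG

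PMF1-BGLAP starts 19 bases upstream of PMF1. The 100 bases before its start hold 11 CG pairs, the dinucleotide that DNMT1 methylates, and those before BGLAP hold 4. COMMD3-BMI1 has the same order, with 22 against 9 before BMI1. The order is reversed for CORO7-PAM16 (13 against 14 before PAM16) and RPL17-C18orf32 (6 against 13 before C18orf32). It is also reversed for ABHD14A-ACY1, with 9 against 12 before ACY1. The BGLAP window also holds the letters TATAAA, beginning 28 bases before the start. The RefSeq promoter table, with 250 bases before and 50 after each start, had a window for 45 of the 60 readthrough genes. It had one for the first parent too in 43 cases, and in 22 of these the windows were the same. The readthrough windows and those of 48 first parents each had a median of 25 CG pairs per 300 bases. Those of 47 second parents had 22, and those of all 27305 genes 14. TATAAA, searched on both strands, was found in 4.44% of the readthrough windows (2 of 45) and 2.08% of the first parents' (1 of 48). It was found in 12.8% of the second parents' windows (6 of 47) and 12.0% of all windows. These are counts of letters and not of bound factors.

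Readthrough genes were listed at low levels, with medians below those of their parents and of all genes. The first table listed 49 of them, from 0.00038 FPKM to 12.2 FPKM with a median of 1.35 FPKM, and the second listed 54, from 0.061 to 25.7 FPKM with a median of 1.13 FPKM. The medians of the first parents were 9.41 and 9.01 FPKM, those of the second parents 5.10 and 6.45 FPKM, and those of all genes 4.03 and 3.43 FPKM. At least 5 FPKM was reached by 5 readthrough genes of the first table and by 4 of the second. Together they made up 0.0176% and 0.0224% of the summed FPKM of the tables.

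Both parents were listed with 42 readthrough genes of the first table, and 31 of these lay below both. In the second table it was 32 of 53. None of them lay above both parents in either table. The order against the first parent was nearly uniform, with 40 of 42 and 50 of 53 readthrough genes below it. Against the second parent it was less so, with 33 of 42 and 35 of 53. These counts leave out genes with an unlisted parent, so the tables rest on unlike sets. MSANTD3-TMEFF1, PMF1-BGLAP, POC1B-GALNT4, RTEL1-TNFRSF6B, TEN1-CDK3 and TVP23C-CDRT4 lacked only the second parent in the first table. In the second table all of them lay above it. ZNF816-ZNF321P lacked both parents in the first table and lay below both in the second. Among the genes above their first parent were DNAJC25-GNG10 and ST20-MTHFS in the second table and PRH1-PRR4 in both. As a share of the summed FPKM of the 3 genes, which approximates a share of RNA molecules at the locus, the readthrough gene had medians of 6.79% (first table) and 5.65% (second table). It was under 5% for 17 of 42 and 24 of 53. Readthrough genes that RefSeq calls protein coding and those it calls noncoding had similar shares, with medians of 6.92% and 6.44% in the first table, while the second gave 5.6% and 5.65%. Across genes, the share and the space between the parents had a Spearman correlation of -0.07 over 42 genes in the first table and -0.23 over 53 in the second. Those points share libraries and gene annotation.

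These levels depend on how fragments were divided upstream. A readthrough RNA consists mostly of exons that its parents also have, and only fragments over the joining splice, or over sequence of its own, belong to it alone. All 60 readthrough genes shared their deposited locus with both parents, and 21 of these loci held no other listed gene. How the division entered the values was not tested.

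The 3 readthrough genes with the highest mean FPKM began in genes of high expression. Across genes the order was looser. The levels of readthrough gene and first parent had a Spearman correlation of 0.36 over 48 genes in the first table. In the second table it was 0.47 over 54 genes. RPL17-C18orf32 (chromosome 18, 49481178 to 49492465; ENSG00000215472) had a level of 12.2 FPKM in the first and 25.7 FPKM in the second. Its first parent RPL17, a protein of the large ribosomal subunit, was listed at 186 and 204 FPKM, and C18orf32 at 3.87 and 2.82 FPKM. NME1-NME2 joins a pair of nucleoside diphosphate kinases, enzymes that balance nucleoside triphosphates, and was listed at 7.21 and 9.67 FPKM. NME1 was at 301 and 340 FPKM and NME2 at 421 and 512 FPKM, so the readthrough gene made up 0.99% and 1.12% of the 3 genes. RPS10-NUDT3 was listed at 7.08 and 9.55 FPKM. It starts with RPS10, a protein of the small ribosomal subunit at 1037 and 966 FPKM, and exceeded NUDT3, a hydrolase of diphosphoinositol polyphosphates at 5.10 and 8.0 FPKM. RPL17 and RPS10 have many processed copies in the genome, so the values of these genes are uncertain.

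PPAN-P2RY11 joins PPAN, a ribosome biogenesis factor, to P2RY11, a receptor for extracellular ATP. It was listed at 7.51 and 8.91 FPKM, below PPAN at 16.7 and 16.9 FPKM and above P2RY11 at 2.66 and 3.92 FPKM. Its share of the 3 genes was 28.0% in the first table, and the receptor gene was the lowest of the 3 in both tables.

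PMF1-BGLAP (chromosome 1, 156212988 to 156243332; ENSG00000260238) joins PMF1, a subunit of the kinetochore MIS12 complex, to BGLAP. It was listed at 5.31 and 3.98 FPKM, against 58.8 and 66.2 FPKM for PMF1. BGLAP itself was not in the first table and was at 0.14 FPKM in the second. A level under a name that contains BGLAP was therefore not matched by the osteocalcin gene alone. ANKHD1-EIF4EBP3 showed the same order, at 3.47 and 4.54 FPKM. ANKHD1, which encodes an ankyrin repeat protein, was at 10.5 and 15.1 FPKM, and EIF4EBP3, which encodes a translation inhibitor that binds the cap-binding protein eIF4E, at 0.19 and 0.32 FPKM. The readthrough gene held 24.6% and 22.7% of the FPKM of the 3.

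Some readthrough genes of low level held large shares of a locus whose parents were low too. ARMCX5-GPRASP2, at 1.27 and 1.38 FPKM, held 39.4% and 25.8% of the 3 genes, with ARMCX5 at 1.85 and 3.6 FPKM and GPRASP2 at 0.089 and 0.38 FPKM. JMJD7-PLA2G4B, at 0.83 and 1.37 FPKM, held 18.6% and 30.1%. Its parents are JMJD7, a lysyl hydroxylase at 3.33 and 2.96 FPKM, and PLA2G4B, a phospholipase at 0.30 and 0.22 FPKM. TVP23C-CDRT4 was listed at 1.96 and 1.64 FPKM and held 32.7% in the second table, where TVP23C was at 3.01 FPKM and CDRT4 at 0.37 FPKM. CDRT4 was not in the first table. TMEM189-UBE2V1 and SLX1B-SULT1A4, named for their mean level and not for their share, had higher levels, higher parents and smaller shares. That contrast follows in part from how the genes were picked. PPAN-P2RY11 and ANKHD1-EIF4EBP3, given above, had higher levels and large shares. TMEM189-UBE2V1, at 4.62 and 2.82 FPKM, held 9.32% and 3.83%, with UBE2V1 at 35.2 and 58.0 FPKM. SLX1B-SULT1A4, at 3.20 and 2.65 FPKM, held 9.46% and 10.2%, with SLX1B at 21.2 and 16.5 FPKM. TMEM189 encodes the plasmalogen desaturase and UBE2V1 a ubiquitin-conjugating enzyme variant. SLX1B-SULT1A4 has a near-identical copy, SLX1A-SULT1A3, at 2.55 and 2.58 FPKM, and the upstream counting could divide fragments between the copies.

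**Figure D2:**
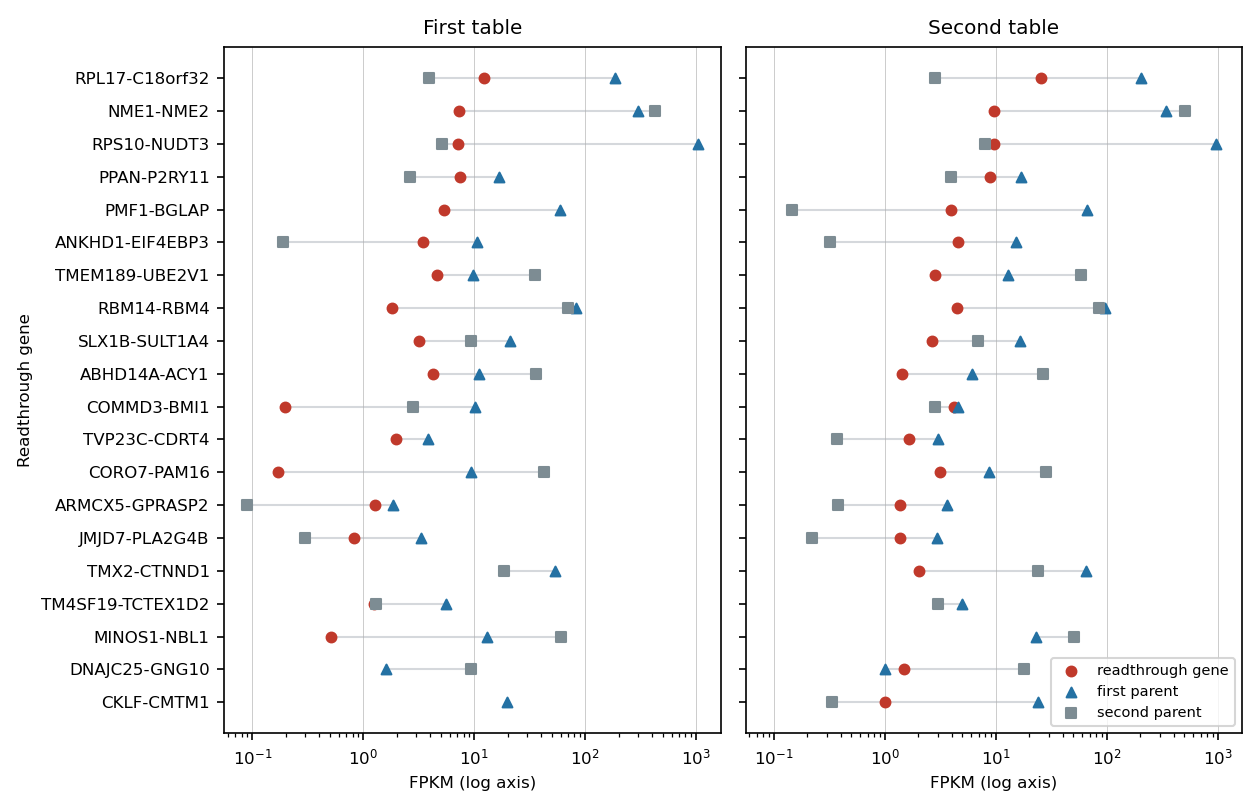
FPKM of 20 readthrough genes (circles) with their first (triangles) and second (squares) parents in the first and the second table, on log axes; a gene not in a table has no symbol there. The circles lie left of the triangles in every row but DNAJC25-GNG10 in the second table.

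Between the tables, 43 readthrough genes could be compared. The difference is given as log2((second + 1)/(first + 1)), with 1 FPKM added to each value, which understates it for low genes. On that scale 3 genes were higher in the second table by 2-fold or more and 1 was lower by as much, against 2.04% and 1.68% of all genes in both tables. In either direction the 4 made up 9.30% of the 43, and the share of all genes was 3.72%. On this scale the share of other genes varied with level. Among genes in the middle range of the readthrough levels, with a mean of 0.989 to 2.51 FPKM, the share was 8.19% of 2235 genes, and 10.9% of the 539 at loci of at least 3 genes. The 21 readthrough genes in that range had 2 past 2-fold, or 9.52%. On this scale the share was near that of other genes of like level, with few readthrough genes behind it. The median log2 ratio of the 43 was -0.15, and that of all genes was 0.05.

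COMMD3-BMI1 (chromosome 10, 22316388 to 22331484, plus strand; ENSG00000269897) had 0.20 FPKM in the first table but 4.17 FPKM in the second. Its log2 ratio was 2.11 and its plain ratio 21.3. COMMD3, a subunit of the endosomal Commander complex, went the other way, with 10.2 and 4.58 FPKM and a log2 ratio of -1.01. BMI1, a component of the Polycomb repressive complex PRC1, was nearly level at 2.79 and 2.84 FPKM. The sum of COMMD3 and COMMD3-BMI1, which share their annotated start, was 10.4 and 8.75 FPKM. The share of the readthrough gene among the 3 genes was 1.49% and 36.0%.

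CORO7-PAM16 (chromosome 16, 4340251 to 4416596, minus strand; ENSG00000103426) had levels of 0.17 and 3.14 FPKM. Its log2 ratio was 1.82 and its plain ratio 18.4. CORO7, a coronin of the Golgi apparatus, was at 9.41 and 8.76 FPKM, and PAM16, a part of the mitochondrial protein import motor, at 42.7 and 28.6 FPKM. Both parents were on the other side of 0 from the readthrough gene. In the first table COMMD3-BMI1 and CORO7-PAM16 lay below 0.579 FPKM, the lower quartile of the readthrough genes, so both ratios rest on low first values.

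RPL17-C18orf32, at the levels given above, had a log2 ratio of 1.01, which became 0.96 once the median over all genes was set to 0. With that centring 1.63% of all genes were at least 2-fold higher. RPL17 had 0.14 and C18orf32 -0.35. ABHD14A-ACY1 (chromosome 3, 51975064 to 51989197, plus strand; ENSG00000114786) was the gene past 2-fold in the other direction, with 4.22 and 1.43 FPKM and a log2 ratio of -1.10. Here the 3 genes lay on the same side: ABHD14A, of the alpha/beta hydrolase fold family, was at 11.1 and 6.15 FPKM, and ACY1, an aminoacylase, at 35.7 and 26.5 FPKM. RBM14-RBM4 lay just inside the threshold, with 1.81 and 4.46 FPKM and a log2 ratio of 0.96. Its parents encode RNA-binding proteins and were listed at 82.8 and 97.2 FPKM for RBM14 and 70.4 and 85.3 FPKM for RBM4.

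**Figure D3:**
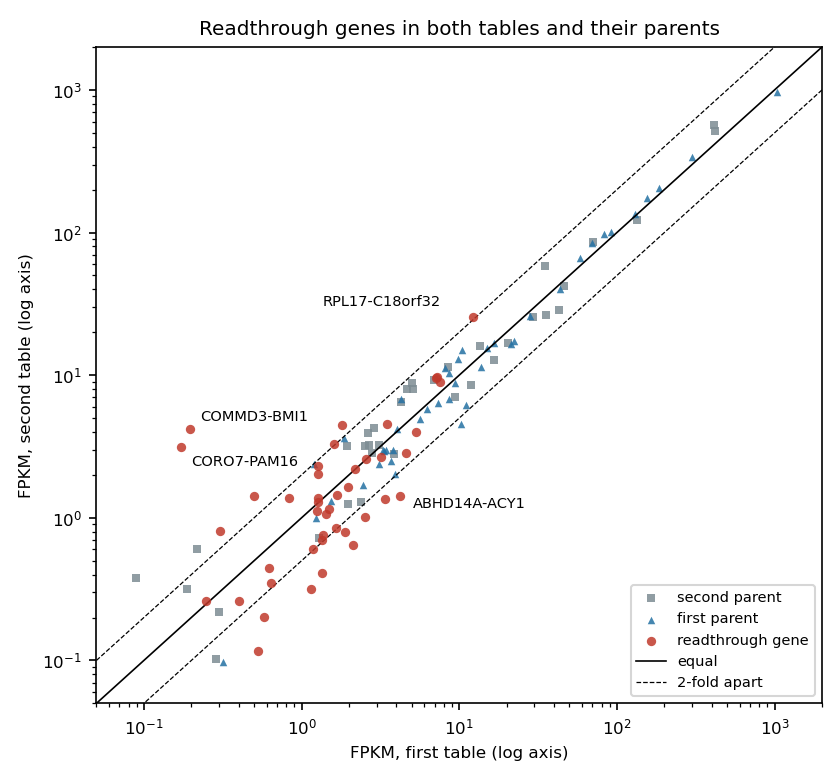
FPKM in the first (x) against the second table (y), on log axes, for the 43 readthrough genes in both tables (circles) and for their first (triangles) and second (squares) parents. The solid line marks equal values and the dashed lines a plain 2-fold difference; COMMD3-BMI1 and CORO7-PAM16 stand farthest above the upper line.

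Without the added 1 FPKM, 7 readthrough genes were higher in the second table by 2-fold or more and 9 lower, against 8.89% and 9.59% of all genes. With 0.1 FPKM added the counts were the same, against 7.41% and 6.82% of all genes. In either direction, without an added value, 37.2% of the 43 readthrough genes passed, as did 18.5% of all genes, and 28.2% of those in the middle range of level. Of the 21 readthrough genes in the same range 7 passed, or 33.3%. Among the 539 genes of that range at loci of at least 3 genes it was 31.2%. In that range the median size of the plain log2 ratio, whatever its sign, was 0.85 for the readthrough genes and 0.61 for all genes, or 0.64 at loci of at least 3 genes. The Spearman correlation between the tables was 0.59 over the 43 readthrough genes and 0.91 over the 10296 genes within their whole range of level, a description of points that share the same libraries. Those 10296 genes were not matched to the readthrough genes in level within that range, and the spread of levels affects a rank correlation. The values are therefore not like for like, and none was computed for the middle range. The following examples were chosen after their values were seen. RPL36A-HNRNPH2 was listed at 2.13 and 0.64 FPKM, while RPL36A, a protein of the large ribosomal subunit, was at 156 and 174 FPKM and HNRNPH2, a splicing regulator, at 6.91 and 9.25 FPKM. INO80B-WBP1 was at 3.39 and 1.35 FPKM, with INO80B, a subunit of the INO80 chromatin remodeller, at 14.9 and 15.6 FPKM and WBP1 at 20.4 and 16.9 FPKM. TEN1-CDK3 was at 2.53 and 1.01 FPKM, with TEN1, of the telomere-binding CST complex, at 13.7 and 11.5 FPKM and the kinase gene CDK3 in the second table only, at 0.55 FPKM. CHURC1-FNTB was at 1.14 and 0.32 FPKM, with CHURC1 at 8.56 and 10.4 FPKM and FNTB, the beta subunit of protein farnesyltransferase, at 4.63 and 7.99 FPKM. SYNJ2BP-COX16 was at 1.35 and 0.41 FPKM, with SYNJ2BP at 3.70 and 2.52 FPKM and COX16, an assembly factor of cytochrome c oxidase, at 5.02 and 8.87 FPKM. On the other side, SENP3-EIF4A1 was at 1.6 and 3.31 FPKM, with the SUMO protease gene SENP3 at 69.3 and 84.0 FPKM and the helicase gene EIF4A1 at 414 and 572 FPKM.

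With 1 FPKM added, the first parents differed less by the median than the readthrough genes, and the second parents only slightly less. On that scale 1 of the 42 first parents in both tables, COMMD3, and 0 of the 36 second parents were at least 2-fold apart. The median size of the log2 ratio, whatever its sign, was 0.41 for the readthrough genes, 0.20 for the first parents and 0.38 for the second parents. The readthrough gene had the larger size in 28 of 42 cases against its first parent and in 22 of 36 against its second. Without the added value the medians were 0.85, 0.25 and 0.46. The parents had higher levels, and among all genes with a mean above the median 2.56% were at least 2-fold apart. The summed FPKM of the 3 genes, over the 36 loci with all 3 genes in both tables, was past 2-fold at 0 loci and had a log2 ratio between -0.57 and 0.60. The readthrough gene's median share of such sums was 6.79% and 5.65%. The sums therefore follow mainly the parents, and their range does not tell whether a locus total was steady while shares moved. The readthrough gene lay on the other side of 0 from its first parent in 19 of 42 cases and from its second parent in 16 of 36. In 8 of 36 both parents lay on the other side. These were CORO7-PAM16, CHURC1-FNTB, RPL36A-HNRNPH2, TMEM189-UBE2V1, JMJD7-PLA2G4B, PKD1P6-NPIPP1, BCL2L2-PABPN1 and SLX1A-SULT1A3. BCL2L2-PABPN1 and SLX1A-SULT1A3 were nearly level, with log2 ratios of 0.019 and 0.009. PKD1P6 had 0.052, and the median of all genes was 0.054, so centring on that median would take these 3 off the list. No such counts were made for other neighbouring genes, so the sides were not read as a result. All 3 genes lay on the same side in 11 of 36.

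**Figure D4:**
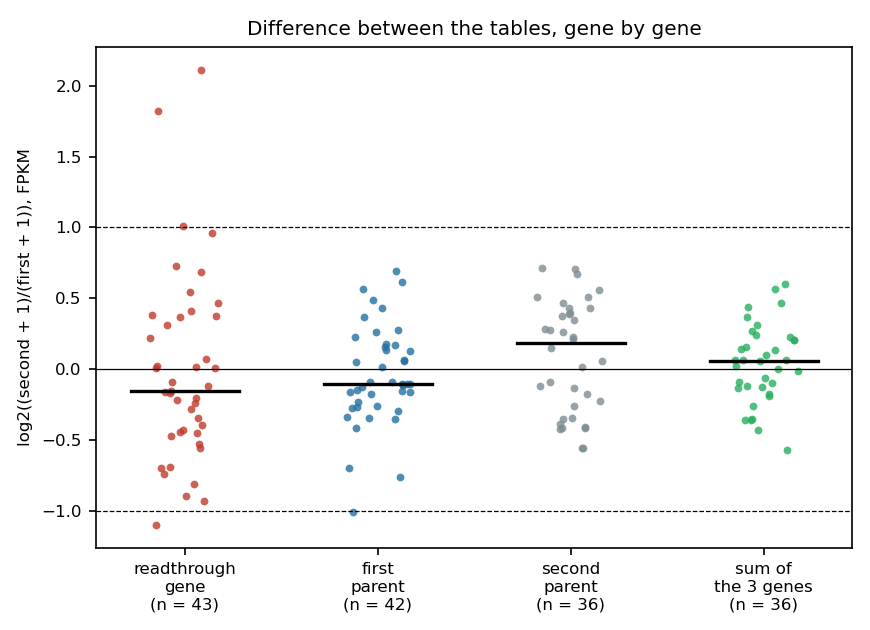
Log2 ratio between the tables, log2((second + 1)/(first + 1)) in FPKM, for readthrough genes in both tables, their first and second parents and the sum of the 3 genes; each point is a gene or locus, the black bars are medians and the dashed lines mark 2-fold. The readthrough genes spread from -1.10 to 2.11, and the sums, which consist mostly of the parents' FPKM, from -0.57 to 0.60.

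Some readthrough genes were listed in 1 table. There were 6 in the first table only, or 12.2% of those it listed, and 11 in the second only, or 20.4%. Over all genes the shares were 5.91% and 15.2%. In the middle range of the readthrough levels they were 4.0% of 25 readthrough genes against 6.60% of all genes in the first table, and 15.4% of 26 against 13.9% in the second. TMX2-CTNND1 was the most abundant of them, at 2.03 FPKM in the second table, with TMX2, a thioredoxin-related membrane protein, at 53.3 and 64.4 FPKM and CTNND1, which encodes p120 catenin, at 18.6 and 24.0 FPKM. DNAJC25-GNG10 was at 1.5 FPKM and CKLF-CMTM1 at 1.00 FPKM in the second table. In the first table TM4SF19-TCTEX1D2 was at 1.26 FPKM and MINOS1-NBL1 at 0.51 FPKM. The parents of these genes were in both tables with the exception of CMTM1, which was listed in the second only, at 0.33 FPKM. ARL2-SNX15 was in the first table at 0.00038 FPKM, beside ARL2 at 58.1 FPKM and SNX15 at 11.4 FPKM. HOXA10-HOXA9, which joins neighbouring homeobox genes of the HOXA cluster, was in the second table at 0.29 FPKM, with HOXA10 at 11.9 and 18.8 FPKM and HOXA9 at 1.83 and 0.79 FPKM. A table with more genes lists more low genes, so presence in 1 table was not read as a difference.

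The rule requires both parents to be listed, and 11 names of the same form fell outside it because 1 parent was not. The highest were ATP6V1G2-DDX39B at 21.7 and 43.5 FPKM and TMEM256-PLSCR3 at 16.3 and 20.3 FPKM, both above each of the 60 in the first table. In the second table RPL17-C18orf32 lay between them. FAM47E-STBD1 was listed at 1.38 FPKM and at 3.5e-05 FPKM. BORCS8-MEF2B was listed at 5.15 and 2.30 FPKM.

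The factors that end transcription were listed in full. Of 31 genes for cleavage, polyadenylation and termination, 31 were in both tables, 22 higher and 9 lower in the second, with a median log2 ratio of 0.10, and 0 were at least 2-fold apart. The abundant ones were the poly(A)-binding protein PABPN1 at 46.2 and 42.5 FPKM, the cleavage factor CPSF7 at 40.5 and 43.5 FPKM, the scaffold SYMPK at 37.8 and 37.9 FPKM and the phosphatase SSU72 at 34.3 and 38.4 FPKM. PABPN1 is also the second parent of BCL2L2-PABPN1, listed at 1.27 and 1.30 FPKM. Of 17 genes of nonsense-mediated decay, 11 were higher and 6 lower, with a median log2 ratio of 0.21, and 0 were at least 2-fold apart. Over all genes the median log2 ratio was 0.05 and 3.72% were at least 2-fold apart, so a count of 0 in lists of this size is near the background. Since that median lay above 0, most of all genes were higher in the second table too. The counts of higher and lower genes were therefore not read as a result. The helicase gene UPF1, central to that pathway, was listed at 28.0 and 29.8 FPKM.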

How the data were processed

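The values were 2 deposited tables of FPKM per gene, whose columns are, per the file headers, identifier, gene name, locus and FPKM. The authors scaled FPKM for transcript length and fragment number before they deposited it, and no source used here names the tool for it. Listed without a role in the submitters' processing notes are hg38, MACS 1.4.2, BWA 0.7.13 and cutadapt 1.12. No column names a sample, so the 6 labelled samples entered no comparison, and the limma test planned for values per sample was not used.

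Genes were joined by identifier, and readthrough genes were found by name. Log2 ratios used a pseudocount of 1 FPKM and no filter, and 2-fold was the call. RefSeq annotation (GRCh38.p14) was matched by symbol or synonym on the same chromosome. Genes named were those past 2-fold with a mean of at least 1 FPKM, the 10 highest means, the 5 largest shares, the 5 highest in 1 table only, and their parents; of the termination list, the 4 highest. Any other gene named was chosen after its values were seen. The members and lists were chosen with earlier results of these data known. The ratio and the name rule were tested on simulated data. Python 3.11.15, pandas 2.3.3, numpy 2.4.6, scipy 1.17.1 and matplotlib 3.10.9 were used. A result on 1 of the genes is not reported here.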

Additional observations from a re-analysis of the deposited data

How the results depend on the processing

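No paired analysis was possible because neither table gives replicates, and leaving out replicates was not possible for the same reason. The choice of members described as readthrough by RefSeq was not run, since the table used holds no descriptions. Of 43 readthrough genes 3 were past 2-fold upward and 1 downward in the second table, and these counts became 7 and 9 with a pseudocount of 0.1 and also with none, since a smaller pseudocount enlarges every ratio. They became 1 and 0 of the 4 genes with a mean above the median of all genes, and 1 and 0 of the 12 at loci holding only the 3 genes. The median log2 ratio of -0.15 turned to 0.38 over those 4 genes, became -0.043 over 32 genes with a mean of at least 1 FPKM, and -0.26 with no pseudocount. Genes below both parents, 31 of 42 and 32 of 53, became 20 of 28 and 18 of 32 with a mean of at least 1 FPKM, and 13 of 13 and 11 of 16 at loci holding only the 3 genes. Fewer genes entered by construction. The other 39 recomputed values for these results moved by up to 1.5-fold for a count or share and by less than 0.1 for the median log2 ratio. Within that margin, the 3 genes past 2-fold upward became 2 of 43 with centring and 2 of 34 with RefSeq ends near those of the parents. They became 2 of 37 without near-identical copies. Values with identifiers summed or a shared locus required could not change. The settings without pseudocount, with loci of only 3 genes, with RefSeq ends near those of the parents and without near-identical copies were chosen after seeing the data.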
